A study of Homo sapiens with 4 samples.

Results

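The neighbouring non-coding RNA genes NEAT1 and MALAT1 and the chromatin around them were described in DU145 cells, from the peaks of acetylated lysine 27 of histone H3 (H3K27ac) and of CTCF on chromosome 11 between positions 65100000 and 65400000 of the hg19 genome. All peaks that shared a base with this 300 kb window were taken: 60 of the 50364 H3K27ac peaks and 19 of the 36152 CTCF peaks. The members were selected on position, that is on the presence of a called peak inside the window, but the locus was proposed after its acetylation was known. Its widths, ranks and coverage are therefore a description, and none was tested. NEAT1 was placed at 65190000 to 65213000 and MALAT1 at 65265000 to 65274000, limits that are rounded to 1 kb and leave 52.0 kb between the genes.

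The series holds 4 libraries of fixed and sonicated chromatin: DU145 pulled down with an antibody to CTCF, DU145 pulled down with an antibody to H3K27ac, and inputs without antibody from DU145 and from LNCaP. DU145 is an established prostate cancer line from a brain metastasis and LNCaP one from a lymph node metastasis; the labels name no treatment besides fixation, and the same RPMI medium with serum is given for both. Each library stands alone, so no value below has a replicate error. The input libraries were not analysed here, except as far as each peak carries a local background, and the lists hold no RNA values against which the labelled cell type or the output of either gene could be checked.

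NEAT1 makes a nuclear RNA in a short and a long form that share their 5′ end, and the long form is the scaffold on which paraspeckles, bodies of RNA and RNA-binding proteins, are built. MALAT1 makes an abundant RNA that gathers at nuclear speckles, the sites where splicing factors are stored, and its 3′ end is cut off to give a small tRNA-like RNA, mascRNA. H3K27ac is laid down by the acetyltransferases p300 and CBP at active promoters and enhancers. CTCF is a zinc finger protein that binds insulators and stops cohesin at the anchors of chromatin loops. In the order of the RefSeq annotation, the miRNA gene MIR612, the pseudogene FAUP4 and the non-coding genes ENEMAL and LINC02736 come between the starts of NEAT1 and MALAT1. FRMD8 and SLC25A45 precede NEAT1, and TALAM1, which is antisense to MALAT1, comes next after the MALAT1 start. The annotation belongs to another genome build than the peaks, so apart from NEAT1 and MALAT1 no peak was assigned to a gene.

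The MALAT1 start sites are shown because the widest acetylated region of chromosome 11, described below, lies over the rounded MALAT1 start used here. Both genes matched the RefSeq gene table and 1 of them, MALAT1, the RefSeq promoter table (GRCh38.p14), with 2 entries of 300 bases, each from 250 bases before to 50 bases after a start. They lie on the plus strand of chromosome 11 of that build, at chr11:65497488-65497787 and chr11:65498795-65499094, 1307 bases apart, and these positions are not hg19 positions. Capitals mark the GC box GGGCGG and the TATA box TATAAA on either strand.
MALAT1 upstream start: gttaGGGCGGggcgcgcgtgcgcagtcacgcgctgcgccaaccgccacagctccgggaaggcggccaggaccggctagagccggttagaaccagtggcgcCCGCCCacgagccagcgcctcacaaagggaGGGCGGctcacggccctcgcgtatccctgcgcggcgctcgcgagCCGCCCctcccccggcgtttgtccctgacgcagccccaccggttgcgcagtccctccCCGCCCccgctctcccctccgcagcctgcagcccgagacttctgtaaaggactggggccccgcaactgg
MALAT1 downstream start: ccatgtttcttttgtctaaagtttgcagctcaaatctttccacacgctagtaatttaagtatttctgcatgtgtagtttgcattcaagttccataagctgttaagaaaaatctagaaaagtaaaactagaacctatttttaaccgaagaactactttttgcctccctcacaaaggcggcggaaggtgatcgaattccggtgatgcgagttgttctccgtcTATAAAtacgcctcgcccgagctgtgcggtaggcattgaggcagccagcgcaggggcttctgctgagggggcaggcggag
The upstream entry is a GC-rich start with no TATA box, and the downstream entry the reverse. The upstream entry had 73.7% G and C, 37 CpG dinucleotides and 5 GC boxes on both strands together, and TATAAA was not in it. The downstream entry had 46.0% G and C and 14 CpG dinucleotides, no GC box, and 1 TATAAA on the plus strand whose first base is at -30 from the start. Over the 35116 promoters of the table the medians were 58.7% G and C and 14 CpG dinucleotides; GGGCGG was in 45.0% of them and TATAAA in 11.5%. No match overlapped another in these entries.

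Acetylation covered 104 kb of the 300 kb window, 34.7%, and was concentrated from just upstream of NEAT1 to just downstream of MALAT1. Cut into 300 kb windows from the first base of each chromosome, the genome gave 8225 windows with a peak, and this was the one with the largest acetylated share: 0.0122% of windows, that is this one alone, reached it. The median window had 0.623% of its bases in H3K27ac peaks and the next highest 32.1%. With window borders moved by 100 kb, the window around the locus had 25.5% and was the fifth, and with borders moved by 200 kb it had 32.1% and was the third, against a highest share of 42.2%. By number of peaks the window was less extreme: 0.207% of windows held 60 or more H3K27ac peaks and 0.571% held 19 or more CTCF peaks, with medians of 2 and 4. In the window, the median H3K27ac width was 743.5 bases, against 566 over the list, and the median fold enrichment 5.05, against 4.55. A fold enrichment here is the value the authors deposited for a peak, a ratio of fragments at its summit to the local background, and is compared within 1 list only. The deposited −log10 q was at least 10 for 32 of the 60 H3K27ac peaks, against 43.4% of the list.

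**Figure D1:**
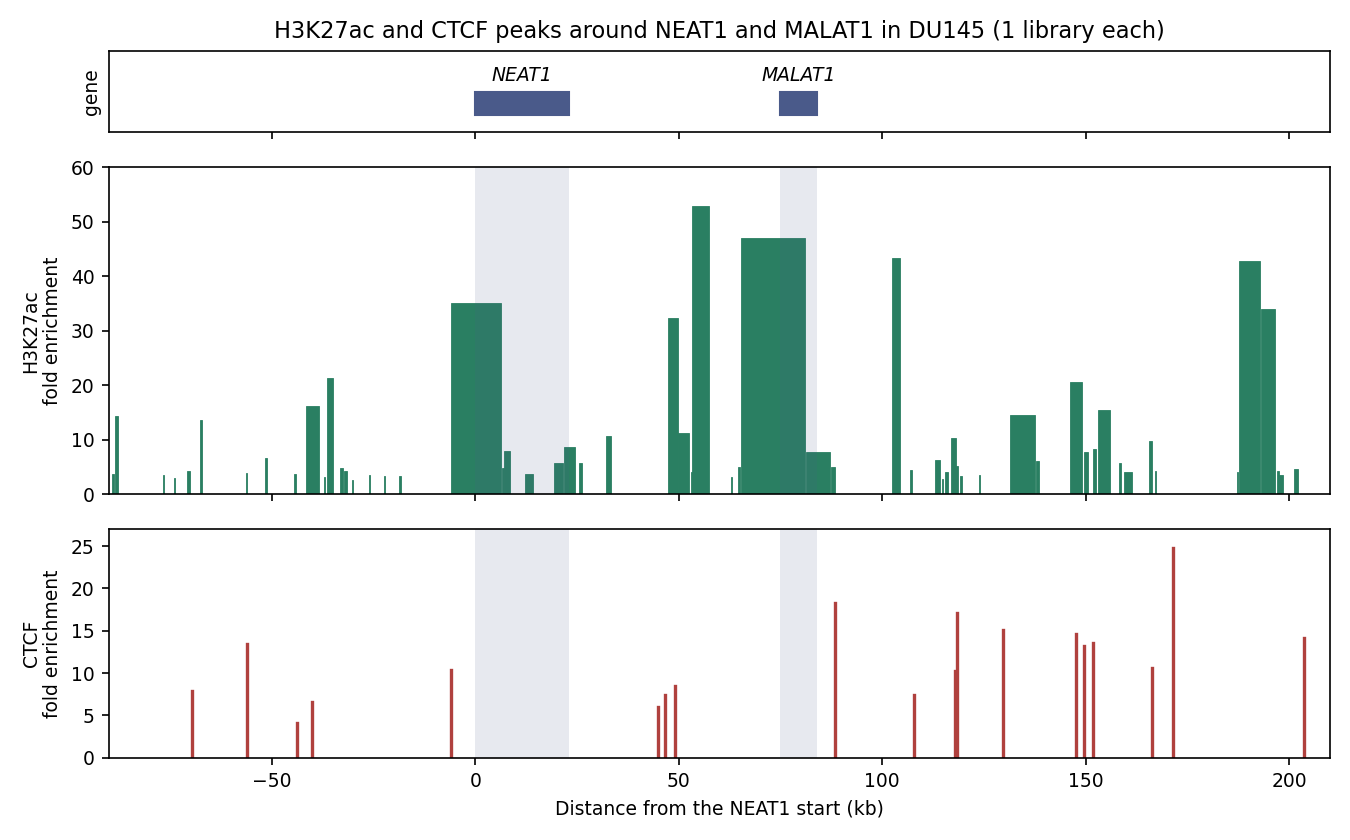
Peaks of the 300 kb window by distance from the NEAT1 start in kb, with NEAT1 and MALAT1 as boxes and shaded. Green bars span each H3K27ac peak and reach its fold enrichment at the summit, and red lines stand at the 19 CTCF summits. The tallest bar (fold 53.0) lies between the genes, the widest (15778 bases) over the MALAT1 start, and no CTCF summit falls within either gene.

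NEAT1 carried a broad acetylated region over its 5′ end and separate, weaker peaks over the rest of its length. The 5′ peak ran from 65184060 to 65196429, a width of 12370 bases, so that it began 5.94 kb before the gene and ended 6.43 kb into it. Of its width 48.0% lay upstream of the start, and its summit was at 65186991, at -3.0 kb from the start. The peak is the tenth widest of the list and the third widest on chromosome 11. At its summit were 280 fragments (exact Poisson 95% interval 248 to 315) over a local background of 7.0 fragments, which gave a fold enrichment of 35.1, a value that 1.33% of the list reached.

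Within the gene, this peak covered 28.0% of the bases, from the start inward. Across the remaining 16.6 kb, towards the 3′ end that only the long form reaches, 42.5% of the bases were in peaks. The next peaks, of 407 and 1320 bases, followed after breaks of 100 and 206 bases with fold enrichments of 4.85 and 7.92. A break of 3.83 kb, a peak of 1984 bases at a fold of 3.69 and a break of 5.04 kb came next. At the 3′ end more of the gene was in peaks again. A peak of 2189 bases had a fold of 5.64, and a peak of 2715 bases that crossed the end of the gene had a fold of 8.59. Their summits held 28 fragments (interval 19 to 40) and 41 fragments (interval 29 to 56), and the summit in mid-gene 25 (interval 16 to 37). These intervals overlapped one another, and all lay far below that of the 5′ peak. Just past the gene, after 985 bases, a peak of 656 bases had a fold of 5.75. In all, 6 peaks shared bases with NEAT1 and covered 58.6% of it.

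MALAT1 was acetylated over nearly its whole length, and the region reached about as far upstream as the gene is long. A single peak ran from 65255278 to 65271055, 15778 bases, the widest H3K27ac peak on chromosome 11 and the second widest of the list, whose maximum is 17714 bases. It began 9.72 kb before the gene and ended 6.05 kb inside it, with 61.6% of its width upstream. Its summit, at 65265542, lay 542 bases after the start used here. The RefSeq starts shown above are 1307 bases apart, so both fall within this peak if either is the start used here. The summit had 271 fragments (interval 240 to 305) over a background of 4.77 and a fold of 47.1, reached by 0.282% of the list.

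The MALAT1 gene body beyond this peak was taken up by a second one. After a break of 208 bases a peak of 5853 bases ran through the 3′ end and 3.12 kb past it, with a fold of 7.75 from 61 fragments (interval 47 to 78). These 2 peaks covered 67.3% and 30.4% of MALAT1, 97.7% together, and the break was the only part of the gene outside a peak. A last peak of 802 bases and a fold of 4.91 ended at 65278336, 4.34 kb after the gene. NEAT1 and MALAT1 thus differed in the continuity of called peaks: the longest stretch without a called peak was 5.04 kb within NEAT1 and 208 bases within MALAT1. Without peaks of a −log10 q under 10, which drops the mid-gene peak of NEAT1, these were 10846 and 208 bases. Both have a broad peak with its summit near or upstream of the start and a lower level towards the 3′ end.

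**Figure D2:**
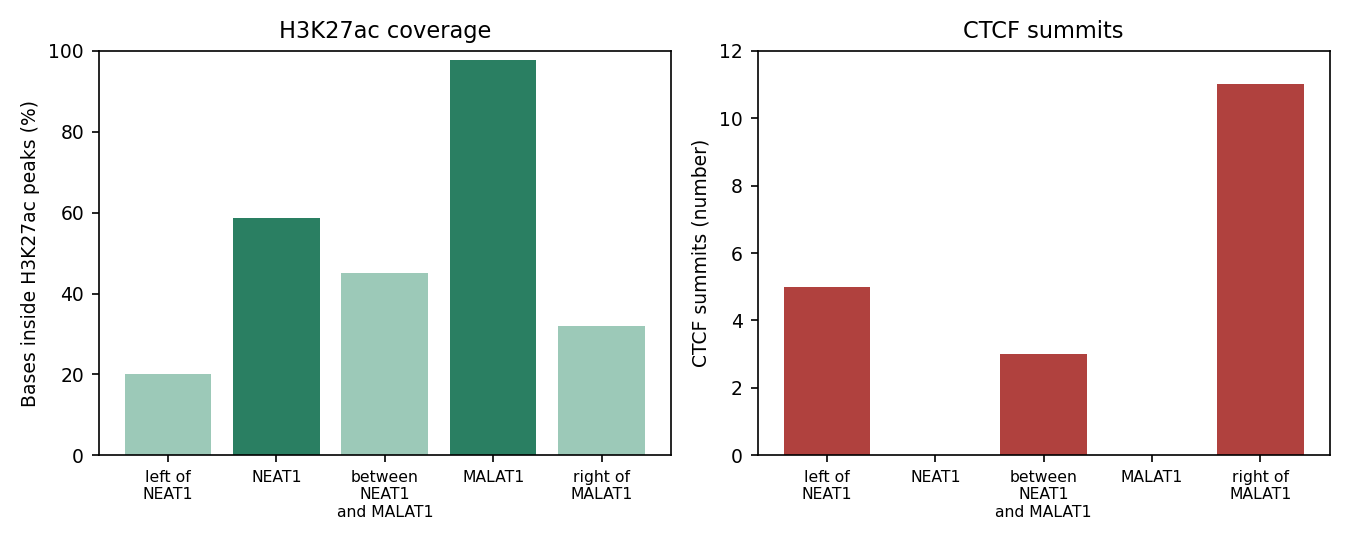
Share of bases inside H3K27ac peaks in percent (left) and number of CTCF summits (right) in the 5 stretches of the window, from 1 library each. Coverage is highest in MALAT1 (97.7%) and NEAT1 (58.6%), the 2 stretches with no CTCF summit. These 2 are also the shortest of the 5 stretches, and the CTCF counts are not divided by length. Whether CTCF is sparser in the genes than in the other stretches was not tested.

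Very wide peaks are rare in the list. Of all H3K27ac peaks 26 (0.0516%) were 10 kb or wider, on 13 chromosomes, and 2 of them were the NEAT1 and MALAT1 peaks, whose summits are 78.6 kb apart. Counting these 2, only 4 of the 26 had another such peak within 100 kb. Wide peaks in the window were not confined to the genes: 22 of the 60 were 1 kb or wider, against 25.6% of the list, and 7 had a fold of 30 or more, against 2.42%. Of those 7, 4 lay between the 5′ flank of NEAT1 and the 3′ flank of MALAT1. The others were downstream of MALAT1, at 65292487 to 65294378 (fold 43.3), 65377598 to 65382832 (fold 42.8) and 65383146 to 65386541 (fold 34.1).

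**Figure D3:**
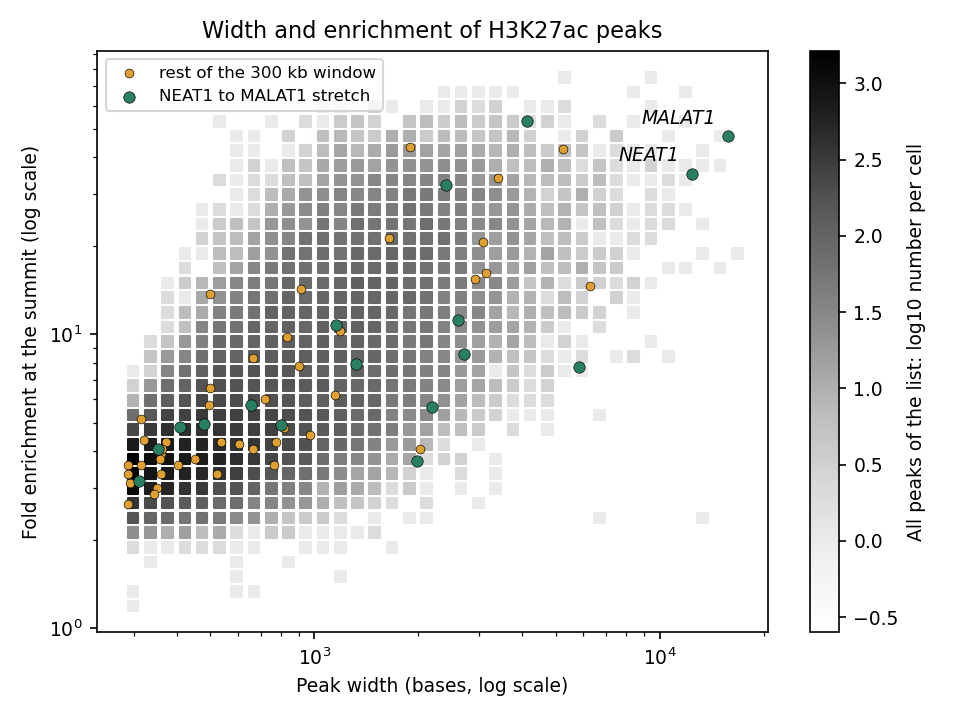
Width in bases against fold enrichment, both on log scales. Grey squares count all 50364 H3K27ac peaks, green points are the 17 peaks from the NEAT1 5′ flank to the MALAT1 3′ flank, and yellow points the other peaks of the window. The broad NEAT1 and MALAT1 peaks (12370 and 15778 bases) sit at the right edge, while most peaks of the window lie among the bulk of the list.

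The highest enrichment of the window lay in neither gene but between them. The peak at 65243363 to 65247504, 4142 bases wide, had a fold of 53.0 from 274 fragments (interval 243 to 308) over a background of 4.19, and 0.117% of the list reached that fold. It was the fifth highest on chromosome 11. Its summit was 31.8 kb after the end of NEAT1 and 20.2 kb before the start of MALAT1. A second strong peak, at 65237303 to 65239712, had a fold of 32.3 from 232 fragments (interval 203 to 264). Between them lay peaks of 2599 bases (fold 11.2) and 352 bases (fold 4.06), and the 4 were separated by breaks of 100 to 384 bases.

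The fragment numbers at the summits could not tell the strongest peaks apart. The intervals of the NEAT1 5′ peak, the MALAT1 start peak and the strongest peak between the genes, 248 to 315, 240 to 305 and 243 to 308, overlapped almost fully. Their folds of 35.1, 47.1 and 53.0 went in the reverse order of their local backgrounds of 7.0, 4.77 and 4.19 fragments, by which the fold is divided. The order of the 3 by fold is therefore an order of backgrounds more than of pulled-down fragments.

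The acetylated stretch broke into a few long blocks and some single peaks. From 65184060 to 65278336, 94.3 kb, 17 H3K27ac peaks covered 55.5 kb or 58.9%. Stretches of 12.4 kb before and 14.2 kb after it held no peak. Of the 16 gaps between these peaks 9 were under 500 bases (26.9% of gaps in the list were), 2 were between 500 bases and 3 kb, and 5 were over 3 kb. Joined across gaps of up to 1 kb, the peaks gave a NEAT1 5′ block of 14.4 kb, a block of 6.90 kb at the NEAT1 3′ end, an intergenic block of 10.2 kb and a MALAT1 block of 23.9 kb. Single peaks of 1.98, 1.16 and 0.311 kb stood apart from these blocks. The MALAT1 block was the longest on chromosome 11 and the twentieth of 32949 in the list, and 96.0% of it was in peaks.

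Called acetylation peaks were not continuous from gene to gene. Only called peaks were used, so a gap or break is a stretch without a called peak, not one shown to lack acetylation. The longest gap ran for 14.1 kb, from a peak of 1159 bases (fold 10.8) that ended at 65223228 to the intergenic block, which began at 65237303. On the MALAT1 side, 5.23 kb separated the intergenic block from a weak peak of 311 bases (fold 3.18), which stood 1.43 kb before a peak of 479 bases (fold 4.97) at the edge of the MALAT1 block. When peaks were joined across gaps of up to 12500 bases, the long gap therefore left the genes in separate domains. NEAT1 was joined to its upstream neighbours in a domain of 122 kb with 26 peaks, of which 28.6% was in peaks; the gap before the NEAT1 5′ peak, 12373 bases, fell short of the limit by only 127. MALAT1 and the intergenic block formed one of 41.0 kb with 9 peaks, of which 79.8% was in peaks. Joined across up to 5 kb, both came apart: the NEAT1 5′ domain was 20.2 kb with 4 peaks, and the intergenic block (10.2 kb, 4 peaks) was separate from a MALAT1 domain of 25.6 kb with 5 peaks. The break within NEAT1 was a gap of 5036 bases and that after the intergenic block one of 5231, both just over the limit.

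No CTCF summit lay in NEAT1 or in MALAT1, and 5 stood around and between them. The first was at 65184004, at -6.0 kb from the NEAT1 start, and the last at 65278438, 4.44 kb after MALAT1; 94.4 kb separate them. The other 3 were grouped between the genes, at 65234916, 65236522 and 65239053. The CTCF-free stretches over the genes were of ordinary length for the list: 39.9% of neighbouring CTCF summits were at least 50.9 kb apart, as on the NEAT1 side, and 47.0% at least 39.4 kb, as on the MALAT1 side.

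The outer CTCF summits, called the NEAT1 border and the MALAT1 border in what follows, lay at the outer edges of the stretch as drawn here. No joining distance used here gave these limits. The gap before the stretch, 12.4 kb, was shorter than the 14.1 kb gap inside it. The 2 names are thus labels of position, and whether these summits bound acetylation was not tested. The upstream summit was 56 bases before the start of the broad NEAT1 peak, and the downstream summit 102 bases after the end of the last MALAT1 peak. That last peak was weak, with 23 fragments (interval 15 to 35) and a −log10 q of 8.97. Without it the acetylated stretch would end at 65277116, and the downstream summit, at 65278438, would lie more than 200 bases outside. At each outer summit, the CTCF and H3K27ac peaks shared bases while the CTCF summit itself was outside the acetylated region. In the list, 6.75% of CTCF summits lay outside but within 200 bases of an H3K27ac peak, and 5 of the 19 in the window did. Seen from the acetylated regions, 5.80% of all H3K27ac peaks, and 15.4% of the 26 that were 10 kb or wider, had a CTCF summit that close outside an edge. The upstream CTCF peak had 101 fragments (interval 82 to 123) and a fold of 10.3, and the downstream one 79 fragments (interval 63 to 98) and a fold of 18.3. The intervals of the fragment numbers overlapped, and the folds differed with local backgrounds that were 3.66 and 1.37 times the genome-wide level.

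The 3 CTCF summits between the genes spanned 4.14 kb at the upstream border of the intergenic block, 21.9 kb from NEAT1 and 25.9 kb from MALAT1. The first, with 32 fragments (interval 22 to 45) and a fold of 6.03, and the second, with 64 fragments (interval 49 to 82) and a fold of 7.42, lay in the 14.1 kb gap, 2387 and 781 bases before the block. The third, with 50 fragments (interval 37 to 66) and a fold of 8.52, lay inside the first peak of the block, 323 bases before that peak's summit. All 3 folds were below the list's median of 9.52, while the fragment numbers of the last 2 were above the list's median of 45. Local backgrounds there were 1.83 to 3.21 times the genome-wide level. Groups as close are uncommon: 4.20% of CTCF summits had at least 2 others within 5 kb, and 6 of the 19 in the window did.

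**Figure D4:**
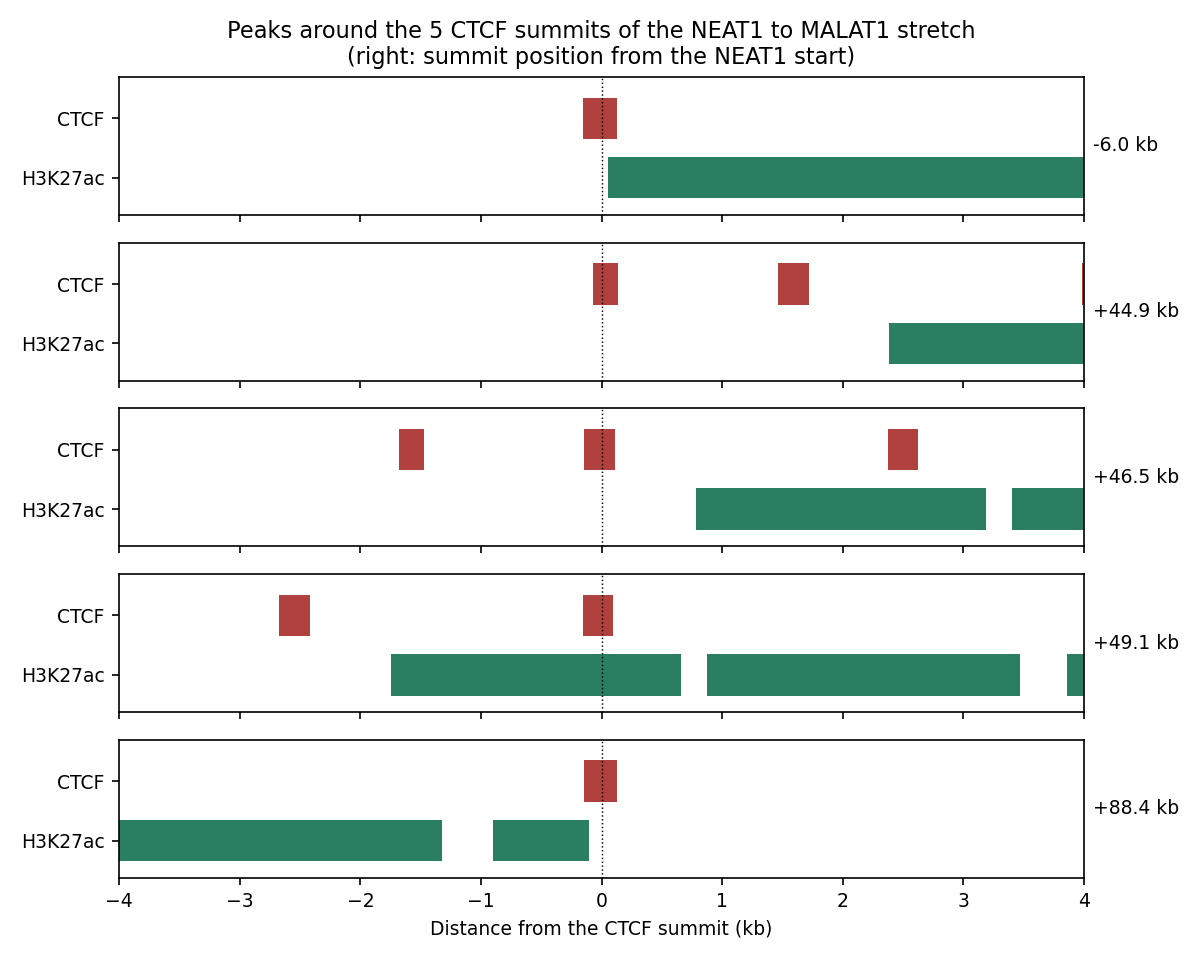
CTCF peaks (red) and H3K27ac peaks (green) within 4 kb of each of the 5 CTCF summits of the NEAT1 to MALAT1 stretch, by distance from that summit in kb. The first and the last panel show acetylation on the inner side of the summit only, starting 56 and 102 bases from it, and the middle panels the 3 summits at the border of the intergenic block. In the last panel the nearest acetylated peak is weak, with 23 fragments and a −log10 q of 8.97.

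The other 3 close summits were downstream, 63.7 kb after the end of MALAT1. They stood at 147.7, 149.5 and 151.7 kb from the NEAT1 start, spanned 4.06 kb, had folds of 13.2 to 14.6 from 57 to 88 fragments, and all 3 peaks overlapped H3K27ac, against 1 of the 3 between the genes. Over the window, 11 of the 19 CTCF peaks shared a base with an H3K27ac peak (14.2% of the list), 6 had the summit inside one (8.40%), and 15 lay within 1 kb of one (19.9%). In turn, 11 of the 60 H3K27ac peaks shared a base with a CTCF peak, against 10.1% of the list. By stretch, the overlapping CTCF peaks were 2 of 4 upstream of the NEAT1 border summit, 3 of the 5 from border to border, and 6 of 10 downstream of the MALAT1 border summit. A window with much acetylation gives a CTCF peak more bases to meet, and how far that accounts for the counts was not tested.

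Acetylated peaks were narrower in the flanks than from border to border. The border-to-border stretch holds both broad peaks of a locus proposed after its acetylation was known. The contrast is thus partly set by that choice and was not tested. Upstream of the NEAT1 border, the median width of 18 H3K27ac peaks was 405 bases and their median fold 3.85, and 2 were 1 kb or wider. From border to border, the median width of 17 peaks was 1984 bases and their median fold 7.75, and 11 were 1 kb or wider. Downstream of the MALAT1 border, the median width of 25 peaks was 766 bases and their median fold 5.75, and 9 were 1 kb or wider. The peaks with summits inside NEAT1 alone, 4 in number, had a median fold of 5.24, below that of the downstream flank. CTCF folds were highest downstream, with medians of 7.27 upstream (range 4.06 to 13.4), 8.52 from border to border (6.03 to 18.3) and 13.8 downstream (7.39 to 24.8); these ranges overlap. In fragments at the summit the medians were 43, 64 and 63, so the last 2 stretches differed in fold but hardly in fragments, with median backgrounds of 2.05 and 1.46 times the genome-wide level. Upstream, the CTCF summits stood at -69.6, -56.1, -43.8 and -40.1 kb from the NEAT1 start, with folds of 7.92, 13.4, 4.06 and 6.62 in that order. Downstream of the close group, they stood at 166.3, 171.4 and 203.6 kb, with folds of 10.6, 24.8 and 14.2. Between the MALAT1 border and that group were 4 more, at 107.8, 117.8, 118.5 and 129.7 kb, with folds of 7.39, 10.2, 17.2 and 15.1. None of these positions is within NEAT1 or MALAT1. The CTCF peak with the highest fold of the window, at 65361166 to 65361803, lay 4135 bases from the nearest H3K27ac peak. It had 89 fragments (interval 71 to 110), against 101 (interval 82 to 123) at the NEAT1 border, and these intervals overlapped.

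The local background solved for each peak was mostly above the genome-wide level along the stretch of the 2 genes. Which library the authors used as background for either list, and whether it was the DU145 or the LNCaP input, is not known, so a background here is not a measurement of DU145 input. From border to border, 16 of the 17 H3K27ac peaks had a background above the genome-wide level, against 69.4% of the list, and the median was 1.5 times that level (range 1.00 to 2.20). It was 1.12 times upstream and 1.00 times downstream. The highest value, 2.20 times, was shared by the NEAT1 5′ peak, the 3′ peak of MALAT1 and the outermost upstream peak of the window, at 65100777, so high values were not confined to the genes. All 19 CTCF peaks of the window had a background above the genome-wide level, against 69.1% of the list, and the 5 border-to-border peaks had a median of 2.05 times (range 1.37 to 3.66). A background of at least 3 times the genome-wide level was found at 3 of the 19 CTCF peaks of the window, against 5.08% of the list: the NEAT1 border summit, the second summit between the genes, and the peak at 65149677 to 65149987 upstream. A higher background lowers the fold of a peak. A peak above the genome-wide level thus has a smaller fold than its fragments would give at that level. Medians over the lists were 1.22 times for H3K27ac and 1.37 times for CTCF. Not every peak of the stretch was clearly above these: the 656-base peak past NEAT1 was at 1.00 times and the MALAT1 border CTCF peak at 1.37 times. The part of the background in the widths and ranks above was not tested.

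**Figure D5:**
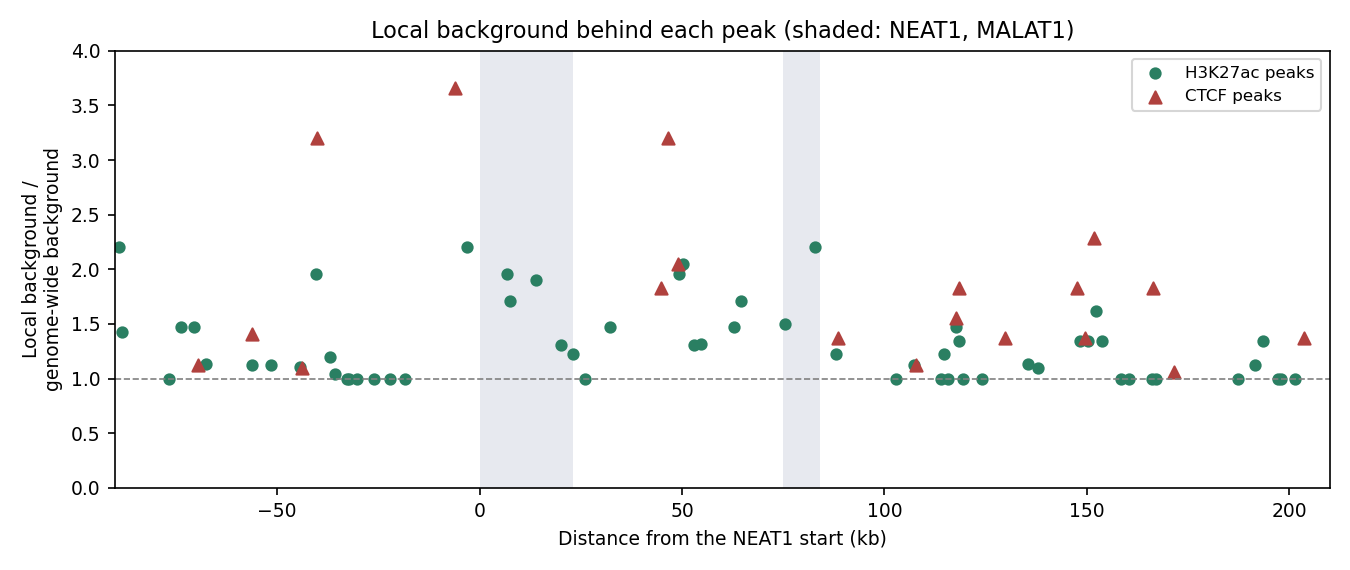
Local background behind each H3K27ac peak (green circles) and CTCF peak (red triangles), divided by the genome-wide background of its list, by distance from the NEAT1 start in kb; the dashed line marks 1 and shading the 2 genes. H3K27ac peaks from border to border have a median of 1.5 and those downstream of 1.00, and the highest CTCF value, 3.66, stands at the NEAT1 border.

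At the window's limits, the nearest peaks left out were an H3K27ac peak of 292 bases (fold 3.61) ending at 65085026 and a CTCF peak of 297 bases (fold 10.7) ending at 65097726 upstream. Downstream they were an H3K27ac peak of 861 bases (fold 3.83) from 65402318 and a CTCF peak of 210 bases (fold 7.47) from 65405262. The outermost H3K27ac peaks inside were one of 451 bases (fold 3.75) at 65100777 and one of 970 bases (fold 4.55) at 65391295. For CTCF they were one of 222 bases (fold 7.92) at 65120337 and one of 308 bases (fold 14.2) at 65393442.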

How the data were processed

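Chromatin of DU145 cells was pulled down for CTCF and for H3K27ac, with 1 library each. The submitters' processing notes name Bowtie, MACS2 and hg19, with no version or setting. Each list belongs to 1 library. The authors deposited peak limits, summit offsets, fold enrichments (linear ratios at the summit) and −log10 p-values and q-values, the latter at least 1.31 in both lists. The deposited whole-number score of a peak was not used.

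The number of fragments at each summit and its local background were solved from the deposited fold and −log10 p, as a Poisson tail with 1 added to both terms of the fold (tolerance 0.002 on −log10 p). CTCF fragments were scaled by 0.911, the scale at which they came out whole, and H3K27ac fragments by 1. All peaks of both lists were solved. The lowest background, 2.18 fragments for CTCF and 3.18 for H3K27ac, was taken as the genome-wide level. The solution was tested only on data simulated from the same formula, over smaller ranges of fragments and backgrounds than the lists hold. That test checks the inversion, not whether the deposited values followed the formula. Summits rested on 10 to 308 CTCF fragments (median 45) or 10 to 568 H3K27ac fragments (median 23). Intervals are exact Poisson at 95% and cover counting error only.

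Positions count from 1. Gene limits are those by which the locus was defined. Overlap means 1 shared base, and a CTCF peak lies in a stretch if its summit does. By rule, every CTCF peak of the window and every H3K27ac peak that touches a gene or the stretch between the genes is named; other H3K27ac peaks were named after their values were seen. Members and lists were chosen with earlier results of these data known, so no test was made. Python 3.11.15, numpy 2.4.6, pandas 2.3.3, scipy 1.17.1 and matplotlib 3.10.9 were used.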

Additional observations from a re-analysis of the deposited data

How the results depend on the processing

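Of 35 alternatives, 13 kept their value within its limits and 22 moved. The limits were the Wilson 95% interval over bases for coverage and a factor of 1.5 for counts. That interval is narrow because it treats neighbouring bases as independent, and it measures no sampling spread. A small shift in coverage, such as from 97.7% to 98.1% of MALAT1, was therefore counted as moved. Moving the gene limits by 1 kb and the gaps within each gene were chosen after seeing the data. A −log10 q of 10 or more left 32 of the 60 H3K27ac peaks (21881 of 50364 in the list) and 18 of the 19 CTCF peaks (28832 of 36152). With it, 49.98% of NEAT1 and 43.7% of the stretch between the genes (45.0% with all peaks) were in peaks, and 8 domains took the place of 4. Keeping peaks at or above the list's median fold left 35 H3K27ac peaks (25799 of 50364 in the list) and 12 CTCF peaks (18077 of 36152). It gave the same 49.98% and 43.7% coverage and 8 domains, and left 0 of the 3 CTCF peaks between the genes. Those 3 had 32, 64 and 50 fragments, against a list median of 45, over backgrounds of 1.83 to 3.21 times the genome-wide level. The part of the background in their folds was not tested. Joining gaps of up to 500 bases raised coverage to 61.5% of NEAT1, 100% of MALAT1 and 47.0% between them. With gene limits 1 kb farther out, coverage was 61.9% of NEAT1 and 98.1% of MALAT1, and with limits 1 kb farther in 54.7% and 97.0%. Domains numbered 14 when joined over 5 kb and 33 over 1 kb. With the summit required inside an H3K27ac peak, 6 CTCF peaks overlapped in place of 11. Either filter lengthened the longest gap within NEAT1 from 5036 to 10846 bases and left that within MALAT1 at 208. Joining over 5 kb split the domains of both genes, in part at gaps of 5036 and 5231 bases, just over that limit. The −log10 q filter also dropped the last MALAT1 peak, on which the distance of 102 bases to the MALAT1 border summit rests. The 14.1 kb gap and the order of coverage, MALAT1 above NEAT1, stood under each alternative run on them. The weakest peak of the window rests on 10 fragments, and no culture-to-culture variation can be seen.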
